A study of Homo sapiens with 6 samples.

Results

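The mitochondrial ribosomal proteins are the MRPL and MRPS proteins of the ribosome inside mitochondria. Their genes were taken from the deposited counts by symbol, as every entry that begins with MRPL or MRPS followed by a digit, which gave 80 of 19009 genes. Of these, 76 were protein-coding genes, and the others were the pseudogenes MRPL42P5, MRPL45P2 and MRPS31P5 and the antisense RNA gene MRPL23-AS1. None of the 80 was without counts in every library, and all were among the 18273 genes tested. By subunit, 49 of the 76 encode proteins of the large subunit and 26 proteins of the small subunit. The remaining gene, MRPS36, carries the name but encodes a protein now known as a component of the alpha-ketoglutarate dehydrogenase complex.

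The cells were RCC10, an established human line of clear cell renal carcinoma, a tumour type in which loss of VHL stabilises the hypoxia-inducible factors HIF-1alpha and HIF-2alpha. The study compared 3 groups of 2 poly(A) RNA libraries. Parental cells (the labelled control) received no construct according to the labels. Double-knockout cells had both HIF alpha subunits targeted by lentiviral guide RNAs with puromycin selection, and VHL-restored cells received a lentivirus that carries VHL, with no selection stated for it. All cells were RCC10 grown in DMEM with fetal bovine serum. No group with a non-targeting guide or an empty vector was among the samples, so transduction and selection cannot be told apart from the change named in each label. The sources used here do not say whether the engineered lines were clones or pools, nor whether cultures were separate for each library. The p-values therefore reflect the spread of these libraries alone, and that spread may be technical.

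The mitochondrial ribosome translates the few respiratory-chain proteins encoded by mitochondrial DNA, and each of its proteins is made in the cytosol from a nuclear gene and imported. Many of its proteins have a bacterial counterpart, and others are specific to mitochondria and sit around the bacterial-type core. In renal carcinoma lacking VHL, HIF is known for restraining mitochondrial respiration and the making of mitochondria. The levels of these mRNAs with HIF subunits targeted or with VHL restored are therefore of interest. Promoters of nuclear genes for mitochondrial proteins are known for sites of the transcription factors NRF1, GABP (an ETS factor) and YY1.

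The promoter stretches below come, for each motif, from the members most raised in double-knockout cells among those that hold it. Both the motif and the rise entered this choice, so the stretches show no relation between motif and rise. They were read from RefSeq promoter windows on GRCh38.p14, from 250 bases before to 50 bases after a start site. Each is 30 bases, 5′ to 3′ on the strand given, with the motif in capitals. The genome build of the counts is not settled (the submitters' processing notes name hg38 and hg19), and the windows were matched by symbol. The first 3 hold the ETS motif CCGGAAG, the next 2 the YY1 motif AAGATGGC and the last 3 the GC-rich NRF1 motif.
MRPL54, chr19:3762649-3762678, minus strand, 18 bases before the start site: agtgcacgtttCCGGAAGacgtcagtggcc
MRPL52, chr14:22829870-22829899, minus strand, 2 bases before the start site: agccggggtagCCGGAAGtaggcgtggcct
MRPS16, chr10:73252622-73252651, plus strand, 8 bases after the start site: aaacctcgactCCGGAAGcggatgatccgc
MRPL52, chr14:22829812-22829841, plus strand, 60 bases before the start site: aacccagattcAAGATGGCgacttcctgct
MRPL36, chr5:1799854-1799883, plus strand, 31 bases before the start site: tgccaggaaggAAGATGGCggcgggggggg
MRPL34, chr19:17305627-17305656, plus strand, 11 bases before the start site: aatgccttgtGCGCACGCGCttgctcagaa
MRPL36, chr5:1799928-1799957, plus strand, 105 bases before the start site: agcagcgagtGCGCAGGCGCtggagtgcga
MRPL14, chr6:44127412-44127441, minus strand, 118 bases before the start site: tgggcctggcGCGCAGGCGCtaggaagagg

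Across the libraries, total counts ranged from 22248126 to 29929116. Levels are in CPM, counts scaled by the TMM-normalized size of each library. EPAS1, the gene of HIF-2alpha, was at 352 and 349 CPM in the parental libraries, 44.4 and 48.0 with the double knockout, and 363 and 369 with VHL restored. HIF1A was at 69.5 and 72.9, 29.6 and 31.6, and 304 and 286 CPM in the same order, and VHL was at 38.8 and 39.5, 43.3 and 47.3, and 652 and 723 CPM. Transcript levels do not measure whether the guides disrupted the proteins. Of the 7 markers for renal carcinoma epithelium, the lineage factor PAX8 was at 297 to 416 CPM over all libraries and CDH2 at 407 to 621 CPM. KRT8 was at 727 to 741 CPM in the parental libraries, 831 to 847 with the double knockout and 1402 to 1506 with VHL restored, and KRT18 at 345 to 352, 814 to 869 and 922 to 988 CPM. VIM was lower in the engineered lines, at 7020.2 to 7022 CPM in the parental libraries, 4665 to 4768 with the double knockout and 3016 to 3210 with VHL restored. PAX2 was at 1.48 to 1.85, 14.8 to 15.9 and 0.858 to 1.36 CPM, and KRT19 stayed under 0.751 CPM. The part of these differences in the results was not tested. Leukocyte markers summed to 0.202 to 0.393 CPM over 5 genes, with PTPRC and CD3E at 0, and endothelial markers to 0.205 to 1.82 CPM over 4 genes, with PECAM1, CDH5 and KDR at 0. Fibroblast markers (4 genes, LUM at 0) summed to 17.3 and 17.4 CPM in the parental libraries, 3.69 and 3.76 with the double knockout, and 22.6 and 24.3 with VHL restored. These are bulk samples, so fewer cells of a kind and less RNA per cell cannot be told apart.

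In double-knockout cells, most mitochondrial ribosomal protein mRNAs were higher than in parental cells. Of the 76 protein-coding members, 57 rose, 5 fell and 14 did not pass the threshold (edgeR quasi-likelihood test, adjusted p under 0.05 with Benjamini-Hochberg adjustment over all genes tested). Over all genes tested, 54.1% passed, 26.6% as higher and 27.5% as lower, so the members' share of higher calls, 57 of 76, was above that background. Among the 14131 genes that pass edgeR's expression filter, which are closer to the members in level, 68.7% passed, 33.8% as higher and 34.8% as lower. The median log2 fold change of the members was 0.41, beside 0.00 for all genes tested. Libraries of the 2 groups did not overlap for 70 of the 76, beside 71.6% of all genes tested and 84.2% of those passing the filter. The changes were moderate: 4 members were at least 2-fold higher and 1 at least 2-fold lower. With a correction for GC content and transcript length, an alternative chosen after seeing the data, 49 members were higher and 9 lower, with a median of 0.29.

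**Figure D1:**
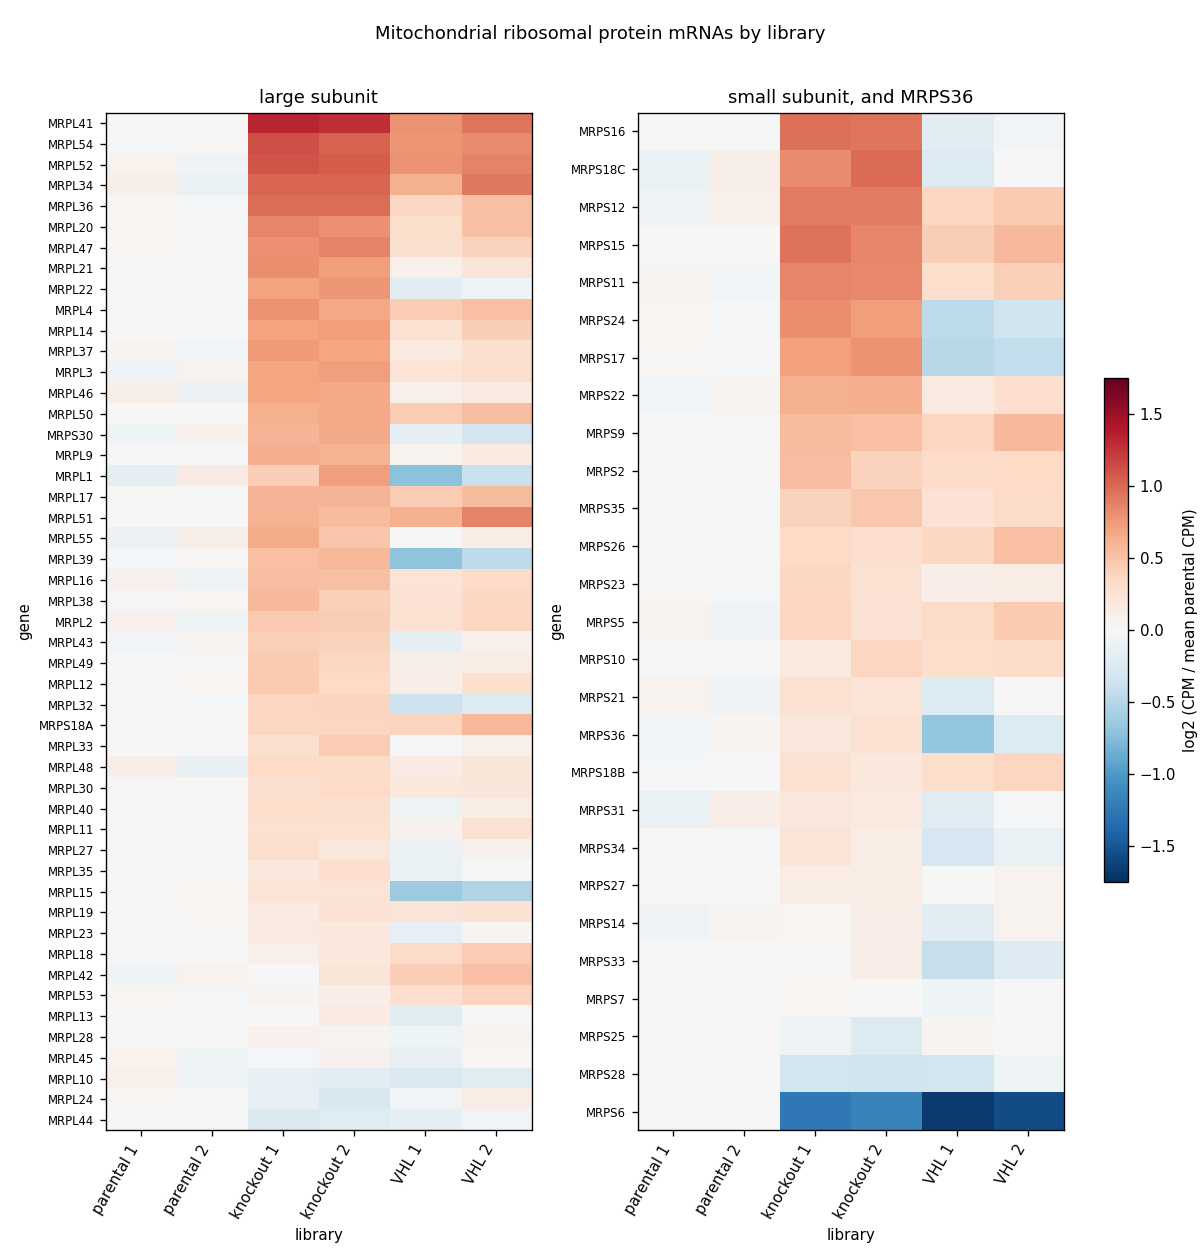
Each cell shows the log2 ratio of a member's CPM in 1 library (horizontal axis, 2 libraries per group) to its mean parental CPM, for 49 large-subunit members (left) and the 26 small-subunit members with MRPS36 (right), ordered by the change in double-knockout cells. Most members are red in both double-knockout libraries, and MRPS6 is the darkest blue in the engineered lines.

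The share of all counts taken by the 76 members was 0.406% and 0.410% in the parental libraries, 0.512% and 0.514% in the double-knockout libraries and 0.412% and 0.450% in the VHL-restored libraries. Both double-knockout libraries stood above all the others, and both VHL-restored libraries stood above the parental ones. VHL-restored replicate 2 was higher than replicate 1, and the members' median coefficient of variation between replicates was 6.13% in this group, beside 2.06% in parental and 2.73% in double-knockout libraries. MRPS6, which moved the other way, accounted for 0.0247% and 0.0254% of counts in the parental libraries. Without MRPS6 the members' shares were 0.382% and 0.385%, 0.502% and 0.503%, and 0.404% and 0.442%.

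**Figure D2:**
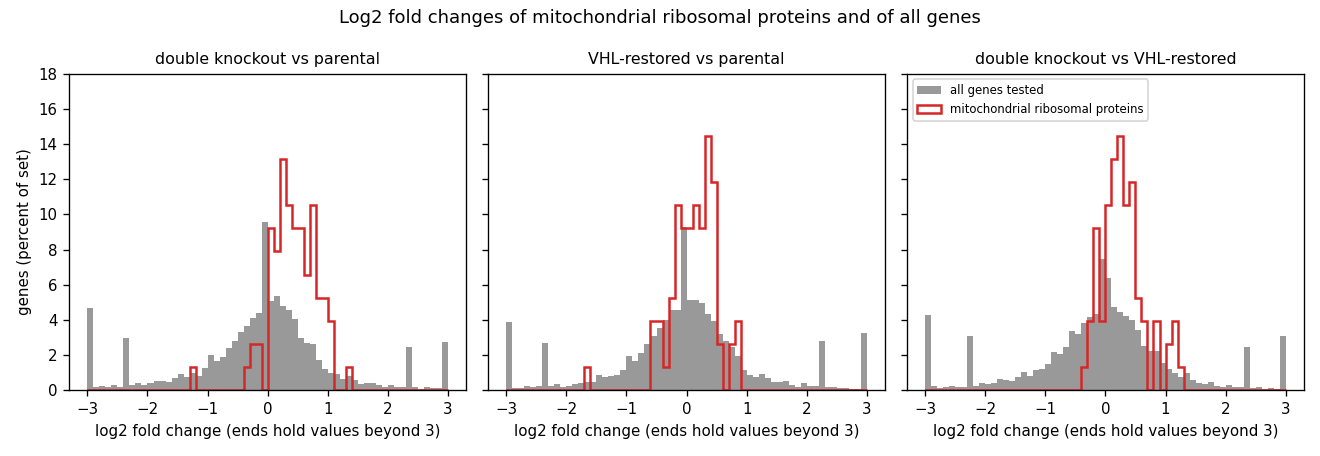
Histograms show the percent of genes (vertical axis) per 0.1 of log2 fold change (horizontal axis) for the 76 protein-coding members (red line) and all genes tested (grey), with values beyond 3 in the end bins. The members lie mostly to the right of 0 in double-knockout against parental cells, with a median of 0.41, and closer to 0 in VHL-restored against parental cells, with a median of 0.14.

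Among large-subunit members, 39 of 49 rose in double-knockout cells, 3 fell and 7 did not pass, with a median log2 fold change of 0.44. The 3 lower calls became 0 without parental replicate 1, and 1 without parental replicate 2 or either double-knockout library. The 4 members at least 2-fold higher were all of this subunit. MRPL41, a mitochondria-specific protein, was at 15.7 and 15.9 CPM in the parental libraries, 39.9 and 38.4 with the double knockout, and 27.4 and 30.4 with VHL restored. The 3 groups did not overlap, with double-knockout highest and parental lowest, and MRPL41 was 2.47-fold higher in double-knockout than in parental cells (log2 fold change 1.31 ± 0.08 SE, edgeR adjusted p 1.59e-14). MRPL54, also without a bacterial counterpart, was at 10.0 and 10.3, 22.2 and 20.8, and 17.5 and 18.1 CPM in the same order of groups. Its double-knockout libraries were again the highest, by 2.11-fold over parental (log2 fold change 1.08 ± 0.10 SE, edgeR adjusted p 2.52e-11).

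MRPL52, the third mitochondria-specific member of this set, was at 18.1 and 16.6 CPM in the parental libraries, 37.2 and 36.2 with the double knockout, and 29.8 and 31.6 with VHL restored. This was 2.11-fold over parental cells in the double knockout (log2 fold change 1.08 ± 0.08 SE, edgeR adjusted p 1.11e-12). MRPL34 and MRPL36 are small proteins that, unlike the preceding 3, have bacterial counterparts. MRPL34 was at 20.2 and 17.3, 38.2 and 38.1, and 28.9 and 35.5 CPM, a log2 fold change of 1.01 ± 0.09 SE in double-knockout cells (edgeR adjusted p 5.84e-11). MRPL36 was at 16.3 and 15.5, 31.3 and 31.3, and 20.5 and 22.8 CPM, a log2 fold change of 0.97 ± 0.09 SE (edgeR adjusted p 3.1e-11). In both, no double-knockout library overlapped another group. Per kilobase of transcript, these 5 mRNAs were at 12.5 to 23.2 CPM in parental cells, below the members' median of 31.2, whereas MRPL3 (79.4) and MRPL37 (92.2), chosen after their values were seen, were above it. MRPL3, a protein near the catalytic centre, was at 130.1 and 141, 218 and 225, and 161 and 167 CPM. MRPL37, which is mitochondria-specific, was at 141 and 132, 229 and 221, and 154 and 167 CPM. Both rose in double-knockout cells, by log2 fold changes of 0.71 ± 0.06 SE and 0.72 ± 0.06 SE (edgeR adjusted p 1.22e-11 and 1.18e-11).

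Split by origin, the 29 large-subunit members with a bacterial counterpart had 23 higher and 2 lower and a median log2 fold change of 0.40 in double-knockout cells. The 20 listed as without one had 16 higher and 1 lower and a median of 0.53. That list includes MRPS18A, although the MRPS18 proteins descend from a bacterial protein, as described below. MRPL12, the mobile stalk protein that contacts translation factors, was at 65.8 and 68.6 CPM in the parental libraries, 92.3 and 85.2 with the double knockout, and 73.1 and 81.4 with VHL restored. The 3 groups did not overlap. Its log2 fold change was 0.40 ± 0.07 SE in double-knockout cells (edgeR adjusted p 1.07e-05) and 0.20 ± 0.07 SE in VHL-restored cells (edgeR adjusted p 0.0158). The second call was lost without parental replicate 1 (adjusted p 0.188), parental replicate 2 (0.0834) or VHL-restored replicate 2 (0.214). With the GC and length correction the values were 0.19 and 0.06.

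Of the 26 small-subunit members, 18 rose in double-knockout cells, 2 fell and 6 did not pass, with a median log2 fold change of 0.31. The lower calls numbered 1 without either parental library. Those with a bacterial counterpart had 13 of 17 higher and 2 lower (median 0.48), and the mitochondria-specific ones had 5 of 9 higher and none lower (median 0.19). MRPS16, a protein with a bacterial counterpart that binds the small ribosomal RNA, was the most raised. It was at 127 and 123 CPM in the parental libraries, 244 and 239 with the double knockout, and 109 and 121 with VHL restored. The double-knockout libraries stood apart from the other 4, 1.93-fold above parental (log2 fold change 0.95 ± 0.06 SE, edgeR adjusted p 1.9e-14). MRPS12, a protein of the decoding centre, was at 34.5 and 38.9, 68.8 and 69.0, and 47.5 and 50.6 CPM. It was chosen after its values were seen, and had a log2 fold change of 0.91 ± 0.08 SE in double-knockout cells (edgeR adjusted p 4.8e-12). MRPS24, which lines the path by which mRNA enters, and MRPS17 also rose and are described with the members that moved in opposite directions.

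MRPS6, a small-subunit protein with a bacterial counterpart, went strongly against the other members. It was at 245 and 249 CPM in the parental libraries, 104 and 110.0 with the double knockout, and 77.3 and 83.7 with VHL restored. The parental libraries were the highest and the VHL-restored libraries the lowest, with no overlap. MRPS6 was 2.31-fold lower in double-knockout cells (log2 fold change -1.21 ± 0.06 SE, edgeR adjusted p 4.9e-17) and 3.07-fold lower in VHL-restored cells (log2 fold change -1.62 ± 0.06 SE, edgeR adjusted p 4.77e-20). Between the engineered lines it was higher in the double knockout (log2 fold change 0.41 ± 0.06 SE, edgeR adjusted p 1.6e-06, or 0.21 with the GC and length correction). In the GENCODE v29 annotation, 273 exon bases of MRPS6, or 6.35%, lie on the same strand as exons of SLC5A3, the gene of a myo-inositol transporter. SLC5A3 was at 835 and 871 CPM in the parental libraries, 127 and 139 with the double knockout, and 234 and 189 with VHL restored. Its log2 fold changes were -2.68 ± 0.07 SE and -2.01 ± 0.07 SE (edgeR adjusted p 4.08e-24 and 3.92e-21), so the order of the engineered lines was the reverse of that for MRPS6. The sources used here do not say how reads shared by the genes were counted, and their part in the result was not tested.

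The other 4 protein-coding members that fell in double-knockout cells fell little. MRPS28, the counterpart of bacterial protein S1, was at 22.8 and 22.8 CPM in the parental libraries, 18.3 and 17.98 with the double knockout, and 18.3 and 21.7 with VHL restored (log2 fold change -0.33 ± 0.09 SE in the double knockout, edgeR adjusted p 0.00255). MRPL44, a protein with a fold related to RNase III, had a log2 fold change of -0.23 ± 0.07 SE (edgeR adjusted p 0.00939). MRPL24, near the exit tunnel, had -0.21 ± 0.07 SE (edgeR adjusted p 0.0175), and MRPL10, at the base of the MRPL12 stalk, -0.18 ± 0.07 SE (edgeR adjusted p 0.0443). None of these 4 kept its call when each library was left out in turn, whereas MRPS6 did. Without parental replicate 1 all 4 were lost, with adjusted p of 0.063 for MRPS28, 0.0926 for MRPL44, 0.229 for MRPL24 and 0.489 for MRPL10. Without parental replicate 2, MRPS28 (0.0554), MRPL44 (0.0583) and MRPL24 (0.104) were lost. Without double-knockout replicate 1, MRPL44 (0.0606) and MRPL10 (0.0893) were lost, and without replicate 2, MRPL24 (0.222) and MRPL10 (0.192). MRPL10 was also lost in DESeq2 (0.0804). Corrected for GC and length, all 4 were lower still, at -0.59, -0.35, -0.46 and -0.35 in the order named. The count of members called lower was 1, 2 and 3 without parental replicate 1, parental replicate 2 and double-knockout replicate 2.

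In VHL-restored cells the members were mixed. Of the 76, 36 were higher than in parental cells, 12 lower and 28 did not pass, with a median log2 fold change of 0.14. Over all genes tested 54.2% passed, 26.5% as higher and 27.7% as lower, and among genes passing the expression filter 68.6% passed, 33.6% as higher and 35.1% as lower. Libraries of the groups did not overlap for 58 members, beside 72.2% of all genes tested and 84.2% of those passing the filter. Large-subunit members had 25 higher, 6 lower and a median of 0.18, and small-subunit members had 11 higher, 5 lower and a median of 0.03. The small-subunit count of lower calls was 3 without parental replicate 1 and 8 without VHL-restored replicate 2. No member was at least 2-fold higher, and MRPS6 alone was at least 2-fold lower. After correction for GC and length, 37 members were higher and 21 lower. This comparison and that of the double knockout share the parental libraries, so their values are given side by side and no relation between them is drawn.

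The 4 most raised in VHL-restored cells were MRPL41, MRPL52, MRPL54 and MRPL34. Their log2 fold changes were 0.87 ± 0.09, 0.82 ± 0.08, 0.81 ± 0.10 and 0.77 ± 0.09 SE, all below those in double-knockout cells given above (edgeR adjusted p 4.1e-10, 7.73e-10, 1.97e-08 and 2.49e-08). Between the engineered lines, the double knockout was higher in each of these (log2 fold changes 0.44, 0.26, 0.27 and 0.24, edgeR adjusted p 1.41e-05, 0.00516, 0.00847 and 0.0182). Of these, the call of MRPL41 held in every alternative. MRPL52 was lost without VHL-restored replicate 1 (adjusted p 0.0521) and with the GC and length correction (0.126, log2 fold change 0.11). MRPL54 was lost without double-knockout replicate 1 (0.0702), without VHL-restored replicate 1 (0.0553) and in DESeq2 (0.0541). MRPL34 was lost without either parental library (0.0868 in both), double-knockout replicate 1 (0.141) or replicate 2 (0.131), and VHL-restored replicate 1 (0.405, log2 fold change 0.10), with only the 4 libraries compared (0.0852) and in DESeq2 (0.0655), and its value was 0.14 with the GC and length correction. MRPL51, a mitochondria-specific protein, was next, at 93.7 and 92.9 CPM in the parental libraries, 142 and 137 with the double knockout, and 144 and 170.2 with VHL restored. Here the VHL-restored libraries were the highest (log2 fold change 0.75 ± 0.07 SE against parental, edgeR adjusted p 6.47e-11). The double-knockout value was 0.58 ± 0.07 SE (edgeR adjusted p 1.23e-08), or 0.37 with the GC and length correction. MRPL51 shares 31.3% of its exon bases with NCAPD2 on the opposite strand. NCAPD2 had log2 fold changes of 0.61 in VHL-restored cells, -0.07 in the double knockout and -0.67 between the engineered lines. The part of this overlap in the values of MRPL51 was not tested. MRPL17, a bacterial-type protein around the exit tunnel, was at 49.6 and 48.3, 73.9 and 73.6, and 66.9 and 72.1 CPM, a log2 fold change of 0.51 ± 0.07 SE in VHL-restored cells and 0.59 ± 0.07 SE in double-knockout cells (edgeR adjusted p 2.42e-07 and 1.15e-08).

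**Figure D3:**
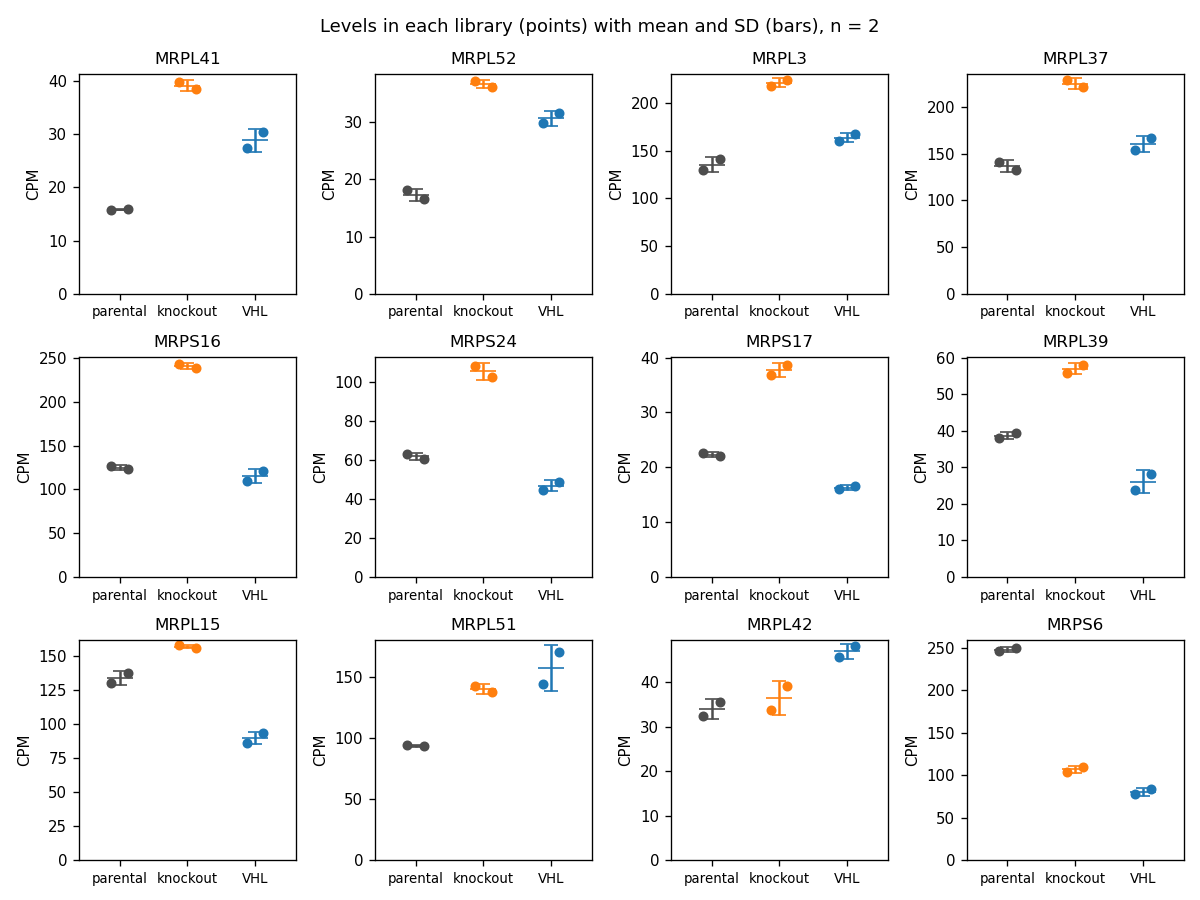
Points show CPM in each library (vertical axis, from 0) for 12 members in parental, double-knockout and VHL-restored cells (horizontal axis), with the mean and SD of 2 libraries. MRPL41 and MRPL52 step up from parental to VHL-restored to double knockout, MRPS17, MRPS24, MRPL39 and MRPL15 are highest in the double knockout and lowest in VHL-restored cells, and MRPS6 is highest in parental cells.

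Both comparisons with parental cells called 33 members higher, and they called MRPL10 and MRPS6 lower. Another 16 were called higher in the double knockout and did not pass in VHL-restored cells, and MRPL24, MRPL44 and MRPS28 were lower in the double knockout and did not pass in the other. MRPL18, MRPL42 and MRPL53 were called higher, and MRPS33 and MRPS36 lower, in VHL-restored cells without passing in the double knockout, and 9 members passed in neither. By the values of single libraries, 29 members had the order parental below VHL-restored below double knockout without overlap, 11 had VHL-restored below parental below double knockout, and 6 had parental below double knockout below VHL-restored. In 27 members at least a pair of groups overlapped. How often all genes take these joint calls or these orders was not counted, so neither set of counts has a background beside it. Both comparisons use the same parental libraries, so their calls are not independent. For single pairs of groups, 71.6% to 72.6% of all genes tested did not overlap, and 84.2% to 84.5% of those passing the expression filter.

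**Figure D4:**
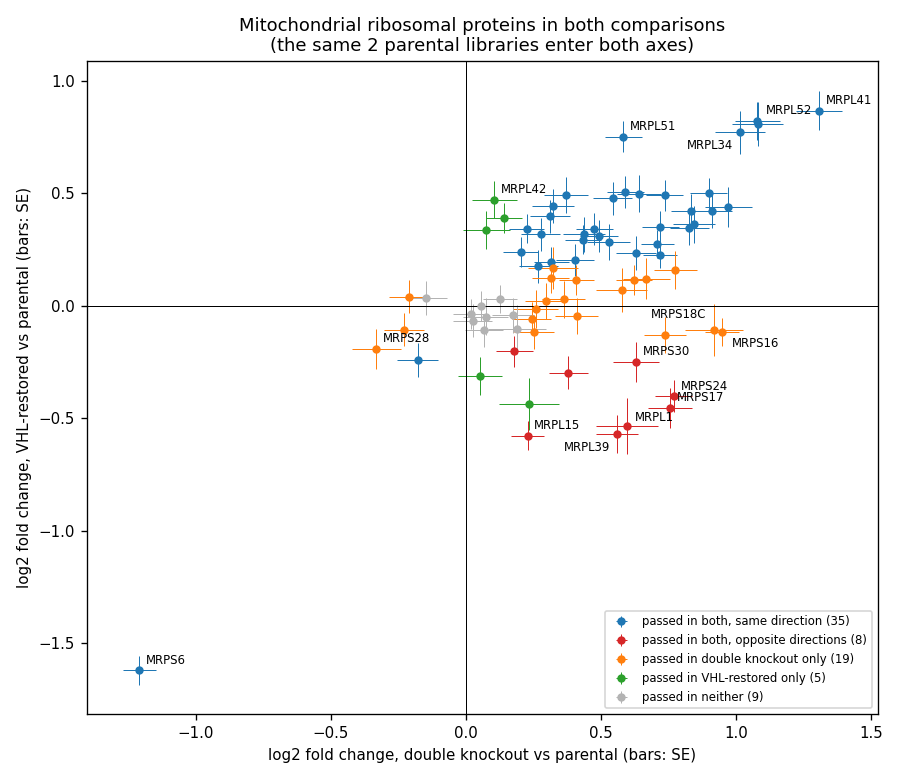
Each point is a protein-coding member, with its log2 fold change in double-knockout (horizontal axis) and VHL-restored cells (vertical axis) against the same parental libraries, bars for SE, and colours for which comparison passed. Most points lie to the right of 0, 8 red points lie to the right of and below 0, and MRPS6 lies alone at the lower left.

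In 8 members the calls against parental cells had opposite signs, higher in the double knockout and lower in VHL-restored cells. They were MRPL1, MRPL15, MRPL32, MRPL39, MRPS17, MRPS24, MRPS30 and MRPS34. How many of all genes had such opposite calls was not counted. MRPS17, an RNA-binding protein of the small subunit, was at 22.6 and 22.01 CPM in the parental libraries, 36.8 and 38.6 with the double knockout, and 15.99 and 16.6 with VHL restored. It had the largest difference between the engineered lines among the members, 2.31-fold (log2 fold change 1.21 ± 0.08 SE, edgeR adjusted p 5.82e-14), with 0.76 ± 0.08 SE and -0.45 ± 0.09 SE against parental cells (edgeR adjusted p 1.2e-09 and 4.07e-05). MRPS24 was at 62.9 and 60.3, 108 and 102, and 44.7 and 48.6 CPM, with log2 fold changes of 0.77 ± 0.07 SE and -0.40 ± 0.07 SE against parental cells (edgeR adjusted p 2.97e-11 and 1.46e-05). The annotated readthrough gene URGCP-MRPS24 shares 23.2% of the exon bases of MRPS24 on the same strand, with log2 fold changes of 0.76 and -0.38, and reads of the pair may be split between them.

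MRPL39, a mitochondria-specific protein, was at 38.0 and 39.3 CPM in the parental libraries, 55.9 and 58.0 with the double knockout, and 23.8 and 28.2 with VHL restored. The double knockout was higher and the VHL-restored cells lower, by log2 fold changes of 0.56 ± 0.08 SE and -0.57 ± 0.08 SE (edgeR adjusted p 2.74e-07 and 5.88e-07). MRPL1, the protein of the stalk beside the tRNA exit site, was at 11.9 and 14.5, 17.8 and 21.9, and 8.01 and 10.1 CPM. Its log2 fold changes were 0.60 ± 0.11 SE and -0.53 ± 0.13 SE (edgeR adjusted p 3.79e-05 and 0.000509), and the first was lost without parental replicate 1 (adjusted p 0.0672) and the second without parental replicate 2 (0.126). MRPL15, a core protein of the large subunit, was at 130.4 and 138, 158 and 156, and 86.5 and 93.2 CPM. Its log2 fold change was -0.58 ± 0.06 SE in VHL-restored cells (edgeR adjusted p 2.89e-09) and 0.23 ± 0.06 SE in the double knockout (edgeR adjusted p 0.00215), and the latter was lost without parental replicate 1 (adjusted p 0.0858) and with the GC and length correction (0.02). That correction also moved the double-knockout values of MRPL39 to 0.36 and of MRPL32 to 0.15.

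MRPL32, which is cut by the m-AAA protease of the inner membrane before it joins the ribosome, had log2 fold changes of 0.38 ± 0.07 SE and -0.30 ± 0.07 SE (edgeR adjusted p 3.77e-05 and 0.00102). MRPS30 belongs to the large subunit in spite of its name, and was at 21.9 and 24.2 CPM in the parental libraries, 34.6 and 36.5 with the double knockout, and 20.4 and 18.2 with VHL restored. Its double-knockout libraries were the highest (log2 fold change 0.63 ± 0.08 SE, edgeR adjusted p 1.21e-07). The lower value in VHL-restored cells (-0.25 ± 0.09 SE, edgeR adjusted p 0.0181) was lost without parental replicate 2 (adjusted p 0.245), without VHL-restored replicate 2 (0.19) and in DESeq2 (0.0538). MRPS34, a mitochondria-specific small-subunit protein, was at 96.8 and 93.6, 112 and 104, and 77.5 and 88.0 CPM. Its calls were the weakest of the 8, at 0.18 ± 0.07 SE and -0.20 ± 0.07 SE (edgeR adjusted p 0.0263 and 0.013). The first was lost without either parental library (adjusted p 0.135 and 0.24) or without double-knockout replicate 1 (0.25), and became -0.03 with the GC and length correction. The second was lost without either parental library (0.211 and 0.105) or without VHL-restored replicate 1 (0.223), and was -0.34 with that correction.

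Tested directly between the engineered lines, 47 of 76 members were higher in the double knockout, 6 lower and 23 did not pass, with a median log2 fold change of 0.26. The background over all genes tested was 56.0% passing, with 28.0% in each direction, and among genes passing the expression filter 70.8%, with 35.5% higher and 35.3% lower. Libraries of these groups did not overlap for 67 members, beside 72.6% and 84.5% of the genes in these sets. After MRPS17 and MRPS24 (log2 fold change 1.17 ± 0.07 SE, edgeR adjusted p 2.37e-15), the most raised were MRPL39 and MRPL1 (both 1.13), MRPS16 (1.07) and MRPS18C (1.03). MRPS16 did not pass against parental cells in the VHL-restored line (log2 fold change -0.12 ± 0.06 SE, edgeR adjusted p 0.127), but passed as lower without VHL-restored replicate 2 (-0.19, adjusted p 0.015) and with the GC and length correction (-0.12, adjusted p 0.0103). The 6 called lower in the double knockout than in VHL-restored cells were MRPL42, MRPL53, MRPL18, MRPL24, MRPS25 and MRPL51. With the GC and length correction the counts were 42 higher and 15 lower, with a median of 0.16.

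MRPL42, a mitochondria-specific protein, was at 32.4 and 35.5 CPM in the parental libraries, 33.8 and 39.2 with the double knockout, and 45.7 and 48.2 with VHL restored. The VHL-restored libraries were the highest (log2 fold change 0.47 ± 0.08 SE against parental, edgeR adjusted p 8.48e-06), while the parental and double-knockout libraries overlapped (0.11 ± 0.08 SE, edgeR adjusted p 0.31, or 0.33 and past the threshold with the GC and length correction). MRPL18, which binds the ribosomal RNA of the large subunit in bacteria, was at 76.7 and 79.6, 83.4 and 88.9, and 98.4 and 106 CPM. It was higher in VHL-restored cells (log2 fold change 0.39 ± 0.07 SE, edgeR adjusted p 7.45e-06), and its double-knockout value did not pass (0.14 ± 0.07 SE, edgeR adjusted p 0.0785) and turned to -0.10 with the GC and length correction. MRPL53 was higher in VHL-restored cells by 0.34 ± 0.09 SE (edgeR adjusted p 0.00121), and 45.2% of its exon bases are shared with CCDC142 on the same strand. CCDC142 had log2 fold changes of 0.46 in VHL-restored cells, -0.41 in the double knockout and -0.87 between the engineered lines. The part of shared reads was not tested. Between the engineered lines MRPL42, MRPL18 and MRPL53 had log2 fold changes of -0.37, -0.25 and -0.26, and -0.21, -0.46 and -0.41 with the GC and length correction. The call of MRPL53 did not hold when double-knockout replicate 1 (adjusted p 0.0635) or VHL-restored replicate 2 (0.0902) was left out. MRPL24 (-0.25) was lost without double-knockout replicate 2 (0.115) and VHL-restored replicate 2 (0.113). MRPL51 (-0.17, edgeR adjusted p 0.0345) and MRPS25 (-0.18, edgeR adjusted p 0.0428) each lost the call under 5 of the 6 left-out libraries. MRPL51 kept it without VHL-restored replicate 1, was at -0.04 without VHL-restored replicate 2 (adjusted p 0.672) and was at -0.35 with the GC and length correction. MRPS25 kept it without double-knockout replicate 1, and lost it with that correction (adjusted p 0.119). The count of members called lower was 3 without double-knockout replicate 2 and 2 without VHL-restored replicate 2.

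The 3 MRPS18 proteins descend from a single bacterial protein and occupy different places, MRPS18A in the large subunit and MRPS18B and MRPS18C in the small one. MRPS18A was at 28.1 and 28.2 CPM in the parental libraries, 36.3 and 36.5 with the double knockout, and 36.9 and 42.2 with VHL restored. MRPS18B was at 84.7 and 86.3, 103 and 97.0, and 105 and 111 CPM. By single libraries, both were lowest in parental cells and highest in VHL-restored cells. The difference between the engineered lines passed for neither (log2 fold change -0.12 for MRPS18A). With the GC and length correction both passed as lower in the double knockout (-0.20 and -0.23). MRPS18B also passed with scaling by the median (-0.16), and MRPS18A was at -0.21 without VHL-restored replicate 1. MRPS18A had log2 fold changes of 0.37 ± 0.08 SE and 0.49 ± 0.08 SE, and MRPS18B of 0.23 ± 0.06 SE and 0.34 ± 0.06 SE, in double-knockout and VHL-restored cells (edgeR adjusted p 0.000215, 3.88e-06, 0.00351 and 3.37e-05). MRPS18C was at 9.27 and 10.8, 17.7 and 20.04, and 8.51 and 10.0 CPM. It was raised in the double knockout over parental cells (log2 fold change 0.92 ± 0.11 SE, edgeR adjusted p 9.06e-09) and over VHL-restored cells (1.03 ± 0.11 SE, edgeR adjusted p 9.2e-10). Its parental and VHL-restored libraries overlapped (-0.11 ± 0.12 SE, edgeR adjusted p 0.486). The double-knockout calls of MRPS18A and MRPS18B were lost with the GC and length correction (0.13 and 0.03), and that of MRPS18B also without parental replicate 1 (adjusted p 0.0715) and double-knockout replicate 1 (0.0545). The VHL-restored value of MRPS18A was 0.33 with the correction.

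MRPS36, the gene that carries the name but belongs to neither subunit, was at 12.4 and 13.4 CPM in the parental libraries, 14.7 and 15.5 with the double knockout, and 8.08 and 10.9 with VHL restored. VHL-restored cells were the lowest (log2 fold change -0.44 ± 0.12 SE, edgeR adjusted p 0.00198), and the double-knockout value did not pass (0.23 ± 0.11 SE, edgeR adjusted p 0.076). The latter passed with the replicate block (0.0344), with edgeR's expression filter (0.0446), with only the 4 libraries compared (0.0383) and without VHL-restored replicate 1 (0.0411) or 2 (0.0409). The VHL-restored call was lost without parental replicate 1 (adjusted p 0.0574), parental replicate 2 (0.11) or VHL-restored replicate 1 (0.128, log2 fold change -0.23), and was -0.67 without VHL-restored replicate 2. With the GC and length correction the values were 0.06 in the double knockout and -0.25 in VHL-restored cells. Among the entries that are not protein-coding, MRPS31P5 had 5.49 and 5.91, 3.83 and 4.89, and 3.40 and 2.79 CPM. It was lower in both engineered lines, by log2 fold changes of -0.39 ± 0.15 SE and -0.88 ± 0.16 SE (edgeR adjusted p 0.0243 and 1.34e-05). The double-knockout call was lost without either parental library (adjusted p 0.113 and 0.194), without double-knockout replicate 1 (0.333, log2 fold change -0.22) and in DESeq2 (0.174), and a pseudogene may share reads with its parent gene. MRPL42P5 and MRPL45P2 did not pass in the comparisons with parental cells, and MRPL23-AS1 had 1 count in all.

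Per kilobase of principal transcript in GENCODE v29, which allows genes to be compared, members in parental cells ranged from 2.18 to 249.9 CPM with a median of 31.2. MRPS6 was the highest, at 249.9, followed by MRPL15 (116.9), MRPS34 (93.0), MRPL37 (92.2) and MRPS24 (87.2). In double-knockout cells the median was 41.1 and MRPL37 (152) and MRPS24 (149) led, while MRPS6 was at 108. In VHL-restored cells the median was 36.7 and MRPL51 led at 127, while MRPS6 was at 81.3. MRPL42 was the lowest in each group, at 2.18, 2.34 and 3.015 in the same order, over an annotated transcript of 15582 bases. The choice of transcript sets such a value, and which transcripts these cells use was not measured here.

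The 7 proteins of the mitochondrial ribosome whose symbols in the deposited counts do not carry the prefix were taken from a fixed list. They include MRP63 and ICT1, the older symbols of MRPL57 and MRPL58. In double-knockout cells 6 rose and PTCD3 fell. CHCHD1, a small-subunit protein, was at 24.8 and 25.5 CPM in the parental libraries, 49.0 and 53.6 with the double knockout, and 25.3 and 27.1 with VHL restored, raised in the double knockout over parental cells (log2 fold change 1.03 ± 0.08 SE, edgeR adjusted p 8.92e-13) and over VHL-restored cells (0.97 ± 0.08 SE, edgeR adjusted p 2.7e-12). DAP3, a GTP-binding protein of the small subunit, was at 122 and 117, 193 and 189, and 98.4 and 105 CPM. It had opposite signs, 0.68 ± 0.06 SE in the double knockout and -0.24 ± 0.06 SE in VHL-restored cells (edgeR adjusted p 4.21e-11 and 0.00173). AURKAIP1 and GADD45GIP1, of the small and large subunit, had log2 fold changes of 0.82 and 0.70 in the double knockout, while with VHL restored they had 0.28 and 0.33. PTCD3, which also belongs to the small subunit, was lower in both, at -0.23 and -0.26. In VHL-restored cells 2 of the 7 were higher, 2 lower and 3 did not pass, and without parental replicate 1 the counts were 1 and 1. After correction for GC and length, 5 of the 7 were higher and 0 lower in the double knockout.

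Genes that build and use the ribosome were counted in the same fits, in order of their place in the pathway. Of 16 genes for keeping and transcribing mitochondrial DNA and processing its RNA, 10 were higher and 2 lower in the double knockout (median log2 fold change 0.53), and 4 were higher and 7 lower in VHL-restored cells (median -0.14). POLRMT, the mitochondrial RNA polymerase, was at 40.0 and 36.8 CPM in the parental libraries, 78.6 and 70.3 with the double knockout, and 57.8 and 56.6 with VHL restored. It was higher in both lines (log2 fold changes 0.95 ± 0.08 and 0.57 ± 0.08 SE, edgeR adjusted p 1.58e-12 and 1.06e-07). The helicase gene TWNK, listed under C10orf2, rose in the double knockout (0.86), and POLG2, the accessory subunit of the DNA polymerase, fell (-0.97). The count of lower genes was 1 in the double knockout without parental replicate 2, and 4 in VHL-restored cells without parental replicate 1.

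Of 23 assembly factors, 10 were higher and 3 lower in the double knockout (median 0.16), and 5 were higher and 9 lower in VHL-restored cells (median -0.09). In either direction 56.5% and 60.9% were called, near the 54.1% and 54.2% of all genes tested. Among genes passing the expression filter the shares were 68.7% and 68.6%. MPV17L2, a membrane protein that takes part in assembly, rose in both lines (log2 fold changes 1.06 ± 0.13 and 1.69 ± 0.12 SE, edgeR adjusted p 3.37e-08 and 3.47e-13), as did the helicase DDX28 (0.72 and 0.88). RBFA, which binds the small subunit as it matures, was at 50.4 and 49.6 CPM in the parental libraries, 48.7 and 43.1 with the double knockout, and 26.4 and 26.2 with VHL restored, and was lower in VHL-restored cells (-0.93 ± 0.08 SE, edgeR adjusted p 1.03e-11). The count of lower factors was 1 in the double knockout without parental replicate 2. In VHL-restored cells it was 5 without either parental library, and the count of higher factors was 3 without parental replicate 1 or VHL-restored replicate 2.

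Of 14 translation factors, 7 were higher and 2 lower in the double knockout and 7 were higher and 4 lower in VHL-restored cells, with medians of 0.16 in both. In either direction 64.3% and 78.6% were called, beside 54.1% and 54.2% of all genes tested. Among genes passing the expression filter the shares were 68.7% and 68.6%. OXA1L, which inserts new proteins into the inner membrane, had log2 fold changes of 0.62 and 0.44, and the elongation factor GFM1 of 0.55 and 0.04 (edgeR adjusted p 0.622 for the last). Of 17 mitochondrial tRNA synthetases, 8 were higher and 6 lower in the double knockout and 6 were higher and 6 lower in VHL-restored cells, with medians of 0.05 and -0.04. For the synthetases the shares called in either direction were 82.4% and 70.6%. YARS2 was higher in both lines (0.97 and 0.92) and WARS2 lower in both (-0.97 and -0.82). The higher synthetases numbered 5, 4 and 5 in the double knockout without parental replicate 1, parental replicate 2 and double-knockout replicate 1. The lower translation factors numbered 1 in the double knockout without parental replicate 1 or either double-knockout library, and 2 in VHL-restored cells without parental replicate 2 or VHL-restored replicate 1.

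**Figure D5:**
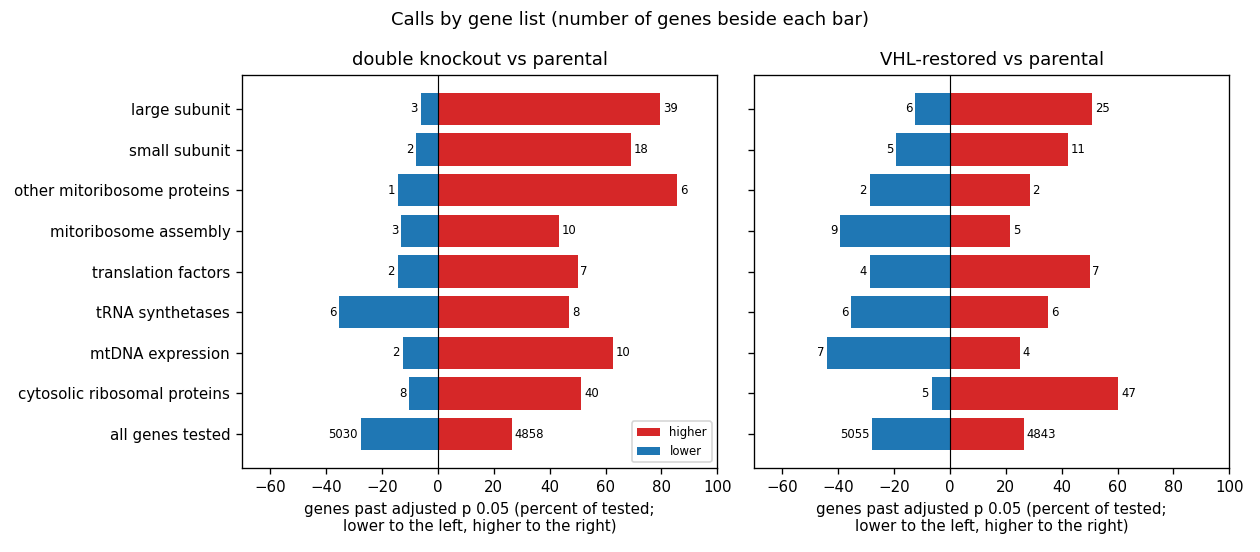
Bars show the percent of tested genes called higher (right) and lower (left) at adjusted p 0.05, by gene list (vertical axis), with the number of genes beside each bar, for double-knockout and VHL-restored against parental cells. The mitochondrial ribosomal proteins have long right-hand bars in the double knockout, and the bottom bar gives the share among all genes tested.

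The 78 cytosolic ribosomal proteins offer a comparison with the other ribosome of the cell. In the double knockout 40 were higher and 8 lower (median log2 fold change 0.18), and in VHL-restored cells 47 were higher and 5 lower (median 0.23). The shares called higher were 51.3% and 60.3%, beside 26.6% and 26.5% of all genes tested and 33.8% and 33.6% of those passing the expression filter. Those called lower were 10.3% and 6.41%, beside 27.5% and 27.7%, and 34.8% and 35.1%. Between the engineered lines, 10 of the 78 were higher in the double knockout and 29 lower, whereas for the 76 mitochondrial members the counts were 47 and 6. The 29 lower were 37.2% of the list, near the 35.3% of genes passing the expression filter, with 28.0% over all genes tested. The 10 higher were 12.8%, beside 35.5% and 28.0%. Cytosolic ribosomal proteins took 2.41% and 2.39% of counts in the parental libraries, 2.58% and 2.57% with the double knockout, and 2.66% and 3.05% with VHL restored. The 2 VHL-restored libraries differed from each other in this share. Between the engineered lines 21 were higher and 15 lower without VHL-restored replicate 2, and 47 were lower without replicate 1. Without double-knockout replicates 1 and 2 in turn, 19 and 15 were lower. Against parental cells the higher calls in the double knockout numbered 24 without parental replicate 2. The lower calls there numbered 4 without parental replicate 1, 5 without parental replicate 2 or double-knockout replicate 2, and 12 without either VHL-restored library. In VHL-restored cells they numbered 2 without parental replicate 1 or VHL-restored replicate 1, 1 without parental replicate 2, 3 without either double-knockout library and 10 without VHL-restored replicate 2. With the GC and length correction, higher and lower were 29 and 28 in the double knockout, 47 and 10 in VHL-restored cells, and 10 and 49 between the lines. Many cytosolic ribosomal protein genes have near-identical pseudogenes, and the sources used here do not say how reads shared with them were counted.

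Among 9 nuclear regulators of mitochondrial genes, 4 were higher and 3 lower in the double knockout and 5 were higher and 3 lower in VHL-restored cells, where 3 were higher without parental replicate 1. PPARGC1A, the coactivator PGC-1alpha, was at 45.9 and 44.1 CPM in parental and 0.0684 and 0.311 in double-knockout libraries (log2 fold change -7.92 ± 0.20 SE, edgeR adjusted p 5.15e-25). In VHL-restored libraries it was at 0.0715 and 0 CPM, where 3 counts correspond to 0.107 CPM. Its relatives PPARGC1B and PPRC1 were higher in the double knockout (0.98 and 0.79), as was ESRRA (0.78), a nuclear receptor that works with them. NRF1, whose motif is shown above, had 0.07 in the double knockout (edgeR adjusted p 0.526) and 0.37 in VHL-restored cells (edgeR adjusted p 0.000819). YY1 was lower in the double knockout (-0.67) and higher in VHL-restored cells (0.37), and GABPA had -0.19 (edgeR adjusted p 0.0622) and -0.61. MYC, a regulator of ribosomal genes, was at 348 and 338 CPM in the parental libraries, 261 and 261 with the double knockout, and 127 and 128 with VHL restored, with log2 fold changes of -0.40 and -1.43. NRF1, GABPA and ESRRA were added after their values were seen.

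Promoter windows were found for 67 of the 76 protein-coding members. MRPL10, MRPL13, MRPL15, MRPL2, MRPL21, MRPL23, MRPL35, MRPS28 and MRPS36 were not used here. Motifs were searched on both strands. The ETS motif CCGGAAG was in the windows of 29 members (43.3%), beside 12.2% of all 27305 genes with a window and 21.7% of those passing the expression filter. The YY1 motif AAGATGGC was in 21 (31.3%), beside 3.52% and 6.37%. The NRF1 motif was in 8 (11.9%), beside 6.98% and 13.1%, so its share lay below that of expressed genes. At least 1 of the 3 was in 46 members (68.7%), beside 20.01% and 35.6%. The core of the hypoxia response element, ACGTG, was in 24 (35.8%), beside 24.9% and 32.1%, and the E-box CACGTG, which contains it, was in 9 (13.4%), beside 8.77% and 12.4%. The motif GGGCGG of SP factors was in 41 (61.2%), beside 48.3% and 76.4%.

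Members with the ETS motif had a median log2 fold change of 0.36 in the double knockout, and those without it 0.55. For the YY1 motif the medians were 0.58 and 0.41, for NRF1 0.57 and 0.41, and for ACGTG 0.45 and 0.40. For CACGTG, held by 9 members, they were 0.72 and 0.41, and for GGGCGG 0.41 and 0.63. These are descriptions with no test. MRPL41, the most raised member, held none of the ETS, YY1, NRF1, CACGTG and ACGTG motifs in its window, nor did MRPS6, the most lowered. Both held GGGCGG. A match is a run of letters and does not show that a factor binds there.

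Many of these genes start close to a neighbour on the other strand, and in some pairs the exons overlap. In GENCODE v29, 26 members have a gene on the opposite strand that starts within 1000 bases, and 21 of them rose and 1 fell in the double knockout (median log2 fold change 0.60). Their 24 neighbours that are not members had 8 higher and 6 lower (median 0.14). Over all genes tested 26.6% were higher and 27.5% lower, and among those passing the expression filter 33.8% and 34.8%. The neighbours' calls lay near these shares, and a relation between members and neighbours was not tested. MRPL46 and MRPS11 are such a pair, with starts 34 bases apart, and had log2 fold changes of 0.67 ± 0.09 SE and 0.84 ± 0.08 SE in the double knockout (edgeR adjusted p 8.57e-08 and 7.75e-11). With the GC and length correction MRPL46 was at 0.43. The pair was picked after its values were seen. MRPL36 and NDUFS6, a subunit of respiratory complex I, start 34 bases apart and had 0.97 and 0.62. MRPL52 and SLC7A7, an amino acid transporter gene, start 59 bases apart and went in opposite directions, 1.08 and -2.33. MRPL32 and PSMA2, a proteasome subunit gene, start 23 bases apart, and their exons overlap by 24 bases. Both values were higher in the double knockout (0.38 and 0.33) and both lower in VHL-restored cells (-0.30 and -0.68). Exons of 27 members overlap those of another gene in the counts, 6 on the same strand and 13 over more than 10% of their exon bases. The sources used here do not say whether reads were assigned by strand, and the part of these overlaps in the results was not tested.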

How the data were processed

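Poly(A) RNA from 6 libraries of RCC10 cells was measured, 2 in each of 3 groups taken from the sample titles. The authors deposited 1 table of counts, whole-number reads per gene symbol. The table is named as normalized. Its values are nevertheless whole, every small integer occurs and columns have different sums, so raw counts were assumed. Tools named, per the submitters' processing notes, are featureCounts 2.0.8, HISAT2 2.2.1, Trimmomatic 0.39, FastQC 0.74 and limma 3.58.1, and the builds hg38 and hg19. The sources used here do not give the strand setting or the handling of shared reads.

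From these counts, edgeR 4.0.16 in R 4.3.3 fitted 3 group means to all 6 libraries (quasi-likelihood, TMM factors 0.977 to 1.02, prior count 0.125), leaving out genes with under 1 count in every library. P-values were adjusted over all 18273 genes tested per comparison, with a threshold of 0.05, and the SE is the size of the log2 fold change divided by the square root of the quasi-likelihood F statistic. Parental libraries held 29454611 and 22248126 counts, those of the double knockout 29929116 and 26085121, and those with VHL restored 27890958 and 27776717. A count of 3 corresponds to 0.101 to 0.132 CPM, which covers counting error only. Replicates differed beyond counting error: their chi-square divided by its degrees of freedom was 2.58, 4.67 and 6.61. The scripts were tested on simulated data.

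The members and lists were chosen with earlier results of these data known. The lists were matched in full, 9 of their genes under older symbols. Members were named by a rule: the 6 most raised and the 6 most lowered per comparison among those past the threshold without overlap, those with opposite signs, those with at most 3 counts, and MRPL12, MRPS18A, MRPS18B, MRPS18C, MRPS30 and MRPS36, with up to 3 genes of each other list. Genes named outside it are said to be so, or complete a count. Alternatives were other scalings, filters, tests (DESeq2 1.42.0, limma-voom 3.58.1), the 4 libraries compared, a replicate block, leaving out each library, and a loess correction of each library for GC content and transcript length. 1 promoter stretch is not reported here.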

Additional observations from a re-analysis of the deposited data

How the results depend on the processing

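Over the alternatives other than leaving out a library, 157 of 162 counts and medians stayed within 1.5 times the reported count or within the replicate spread. The exceptions came from the GC and length correction, chosen after seeing the data. In the double knockout it gave 9 members lower and a median of 0.29, in VHL-restored cells 21 lower, and between the engineered lines 15 lower and a median of 0.16. Members had a median GC content of 49.6% and length of 1458.5 bases, beside 49.7% and 3028 bases for 15610 genes with a value. That fit estimated infinite prior degrees of freedom (26.9 without the correction), so its p-values rest on a spread pooled over all genes and are small. Over all 76 members it changed the sign of 8 in the double knockout, 10 in VHL-restored cells and 11 between the engineered lines. After the change MRPL13, MRPL28, MRPL45 and MRPS7 passed as lower in the double knockout, MRPL28 and MRPL40 in VHL-restored cells, and MRPL50 and MRPS9 between the lines, and none of these had passed before it in that comparison. MRPL13 had passed as higher between the lines, and MRPS34 in the double knockout. Of the members the text names by rule, MRPS34 reversed in the double knockout (-0.034) and MRPS18C in VHL-restored cells (0.071). MRPS18C was also reversed without parental replicate 2 (0.0057) and without VHL-restored replicate 1 (0.0045), and over the left-out libraries it ranged down to -0.23. None of the reversed values of MRPS34 and MRPS18C passed the threshold. The cause was not tested.

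Leaving out each library in turn, members called higher numbered 47 to 59 in the double knockout, 30 to 37 in VHL-restored cells and 35 to 49 between the engineered lines. Members called lower numbered 1 to 5, 8 to 15 and 2 to 7. Medians ranged over 0.38 to 0.41, 0.09 to 0.18 and 0.20 to 0.31. All genes called ranged over 7974 to 10134, 7891 to 9671 and 9019 to 9679. Of the 57 members higher in the double knockout, 44 kept the call without each library in turn and 41 in all alternatives, and 56 kept the sign. Of 36 higher in VHL-restored cells, 28 kept it in all alternatives, and of 12 lower, 6 did (MRPL15, MRPL32, MRPL39, MRPS17, MRPS24 and MRPS6). Of 1035 values for named members under the alternatives, 958 kept direction and side of the threshold, 64 fell below it, 9 passed it and 4 reversed.

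Deviations of same-numbered libraries correlated at 0.135, -0.0041 and 0.024. With 2 libraries a group, this cannot settle whether replicate numbers pair the samples. With the replicate block, members higher and lower were 59 and 5, 36 and 13, and 48 and 6, and all genes called were 10112, 10148 and 10458. Without the block, all genes called were 9888, 9898 and 10225. With 2 libraries a group and totals of 22248126 to 29929116 counts, a p that misses the threshold does not show that levels were alike.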
